A study of Mus musculus with 6 samples.

Results

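The amino acid and peptide transporters described here are the genes of the solute carrier families Slc1, Slc3, Slc6, Slc7, Slc15, Slc36, Slc38 and Slc43, taken as every row of the deposited count table whose symbol begins with 1 of these family names followed by "a". This gave 71 of 24594 genes, 3 of them genes on the opposite strand of a transporter. They were followed by RNA sequencing in mouse small-intestinal organoids, cultured epithelial structures that form crypt-like and villus-like regions. Organoids grown from single cells for 96 h received NIBR-LTSi at 5 uM (3 libraries) or an equal amount of its solvent DMSO (3 libraries), and RNA was taken 24 h later. The compound NIBR-LTSi blocks the LATS kinases of the Hippo pathway, which restrain the co-activators YAP and TAZ. The labels name no mouse strain, genotype, age or number of donor animals, so the p-values below measure the spread between these libraries, which may be technical.

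The small intestine takes up digested protein as free amino acids and as dipeptides and tripeptides. Carriers in the brush border bring these into the enterocyte with sodium or protons, peptidases cleave the peptides, and a second set of carriers in the basolateral membrane passes amino acids to the blood. Several carriers are heteromers, in which a glycoprotein heavy chain (Slc3a1 or Slc3a2) escorts a light chain of the Slc7 family that does the transport. Dividing cells use a partly different set, such as Slc7a5 and Slc1a5, to supply their own protein synthesis, and many of these genes carry binding elements for ATF4, the factor that responds to amino acid shortage.

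Promoter windows are shown for 6 members whose RNA is described below. Slc7a11 and Slc1a4 rose and held a match to the ATF4 composite element (TGATGNAA). The neighbouring genes Slc6a20b and Slc6a20a differed in their change, and Slc36a1 and Slc6a19 fell. Each window runs 5′ to 3′ on the gene's own strand from 150 bases before to 9 bases after a RefSeq-annotated start (GRCm38.p6). Capitals mark matches, on either strand, to TGATGNAA, to the TEAD motif (GGAATG), to the AP-1 motif (TGANTCA) or to the E-box (CACGTG). The windows are chr3:50443604-50443763 (minus strand, Slc7a11), chr11:20332704-20332863 (minus, Slc1a4), chr9:123632529-123632688 (minus, Slc6a20b), chr9:123678823-123678982 (minus, Slc6a20a), chr11:55204190-55204349 (plus, Slc36a1) and chr13:73692627-73692786 (minus, Slc6a19).
Slc7a11: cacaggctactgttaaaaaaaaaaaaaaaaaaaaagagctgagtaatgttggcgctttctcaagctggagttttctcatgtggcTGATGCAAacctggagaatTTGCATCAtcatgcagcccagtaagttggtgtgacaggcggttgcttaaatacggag
Slc1a4: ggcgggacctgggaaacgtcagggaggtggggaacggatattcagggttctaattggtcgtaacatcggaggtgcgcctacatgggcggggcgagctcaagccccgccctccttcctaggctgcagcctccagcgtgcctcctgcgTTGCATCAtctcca
Slc6a20b: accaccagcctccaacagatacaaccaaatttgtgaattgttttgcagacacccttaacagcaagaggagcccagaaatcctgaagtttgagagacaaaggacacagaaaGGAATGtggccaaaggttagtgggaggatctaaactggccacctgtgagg
Slc6a20a: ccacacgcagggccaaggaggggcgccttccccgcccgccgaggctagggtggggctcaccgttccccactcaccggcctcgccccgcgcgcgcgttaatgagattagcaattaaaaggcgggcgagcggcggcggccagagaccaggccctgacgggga
Slc36a1: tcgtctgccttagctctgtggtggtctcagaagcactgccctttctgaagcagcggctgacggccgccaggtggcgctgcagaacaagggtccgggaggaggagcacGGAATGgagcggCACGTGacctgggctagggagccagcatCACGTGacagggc
Slc6a19: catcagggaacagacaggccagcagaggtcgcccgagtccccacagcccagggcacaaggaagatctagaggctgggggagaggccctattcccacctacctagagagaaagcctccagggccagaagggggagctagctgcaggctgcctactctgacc

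The Slc7a11 window held 2 ATF4 composite matches on opposite strands, starting 66 and 47 bases before the start, and the Slc1a4 window held 1 that spans the start. Over the full RefSeq windows of 300 bases, the element was found in 3 of the 33 tested members that had a window, Slc7a11, Slc1a4 and Slc7a7, and in 3.97% of all 32851 windows (2.31% of the windows of tested genes). Of these 3 members, Slc7a11 and Slc1a4 rose and Slc7a7 fell. The TEAD motif was found in 7 members, of which 2 rose (Slc6a20b and Slc6a9) and 5 fell (Slc36a1, Slc43a1, Slc43a2, Slc6a4 and Slc7a7), and in 14.7% of all windows (12.4% for tested genes). AP-1 matches occurred in 5 members (1 higher, 1 lower, 3 not called) and 7.81% of all windows (5.27% for tested genes). E-boxes occurred in 4 members (3 lower, 1 not called) and 7.15% of all windows (10% for tested genes). Several members had more than 1 window, and of their 44 windows 8 held the TEAD motif, 4 the ATF4 element, 5 an AP-1 match and 4 an E-box. These are matches of letters, not measured binding. For scale, 22.8% of all tested genes were called higher and 19.2% lower, and 33.3% of the tested members in each direction. Calls among all genes holding these motifs were not counted, so the splits above describe the members only. Slc1a5, Slc38a1, Slc6a6, Slc6a7, Slc6a8, Slc7a2, Slc7a3, Slc7a4 and Slc7a5 were the tested members without a window.

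Library totals ran from 18395427 to 26767043 counts. Of the 71 members, 42 passed the filter on low counts and were tested. Of the other 29, 11 had no count in any library and 18 had between 1 and 48 counts over all libraries. Those without a count were mostly neuronal, glial or renal carriers, among them the GABA transporters Slc6a11 and Slc6a13 and the glycine transporter Slc6a5, all at 0. Slc6a14, an apical carrier of broad specificity, had 1 count in all. Epithelial markers were abundant (9180 to 9310 CPM summed over 9 genes in DMSO and 10100 to 10800 CPM with NIBR-LTSi), while 14 markers of fibroblasts, endothelium, glia and immune cells summed to at most 4.01 CPM in any library, with Dcn, Cdh5 and Cd3e at 0 in all. CPM is the count scaled to a common library total after TMM normalisation, and RPKM is CPM per kilobase of the deposited gene width.

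With NIBR-LTSi, 14 of the 42 tested members rose and 14 fell, with 14 not called (edgeR quasi-likelihood test, adjusted p under 0.05). That is 66.7% called, against 42.0% of the 12592 genes tested. In each direction it is 33.3%, against 22.8% of all genes higher and 19.2% lower. Scaling moved the split over all genes (2866 higher and 2421 lower), to 3425 and 1921 with library totals only and to 2192 and 3014 after an adjustment for gene width. The members' split was 14 and 14 with library totals only and 13 and 16 after the width adjustment. Changes of at least 1.5-fold made up 35.7% of tested members (7 higher, 8 lower) and 10.9% of all genes (7.08% higher, 3.78% lower). Among genes with a mean of at least 5 CPM, a level chosen after the values were seen, 26 of 35 members (74.3%) and 47.1% of 9852 genes were called. The groups did not overlap in 30 of the 42 members (71.4%), against 52.5% of all genes. The median log2 fold change of the members was 0.03, and that of all genes 0.02. In bulk RNA, fewer cells of a type and less RNA per cell cannot be told apart.

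**Figure D1:**
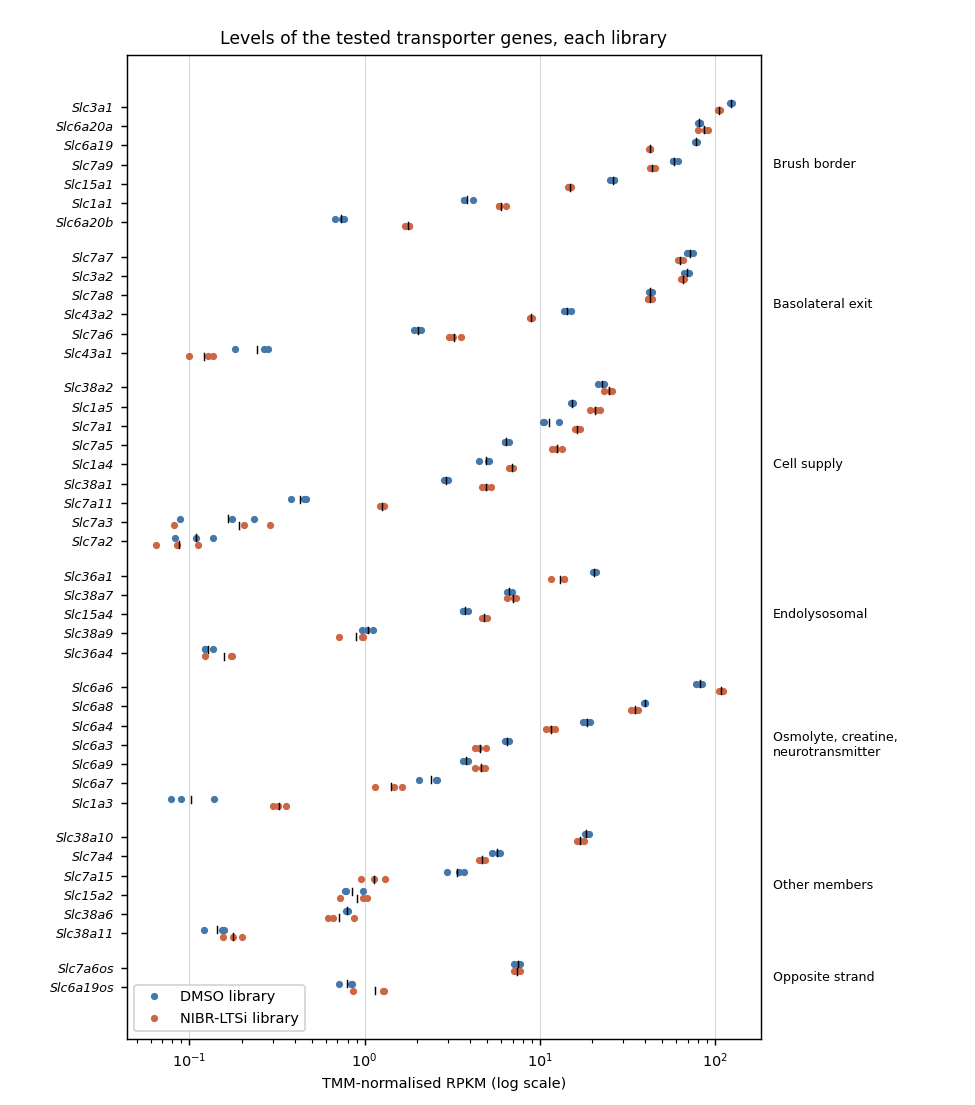
Level of each of the 42 tested transporter genes in every library (points) and the group means (black ticks), in RPKM on a log axis, by role. Slc3a1 holds the highest level in DMSO, and Slc6a6 and Slc3a1 hold the highest with NIBR-LTSi. The treated libraries lie to the left for Slc6a19 and Slc15a1 and to the right for the 7 called cell-supply carriers.

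Per length, the highest transporter RNA levels of DMSO organoids were those of 4 absorptive genes and the taurine carrier Slc6a6. Slc3a1 (123 ± 1 RPKM, SD, n = 3), Slc6a6 (81.8 ± 3.6), Slc6a20a (81.5 ± 1.5), Slc6a19 (78.0 ± 1.4) and Slc7a7 (72.1 ± 2.9) held the first 5 places. Slc6a6 did not differ beyond the spread from Slc6a20a or Slc6a19, nor did Slc7a7 from Slc3a2 (69.2 ± 2.5), just below it. With NIBR-LTSi the means of Slc6a6 (109 ± 3 RPKM) and Slc3a1 (105 ± 2) came first and second, and these genes did not differ beyond their spread. Slc6a19 moved from the fourth to the eighth place at 42.4 ± 0.4. In the treated organoids it did not differ beyond the spread from Slc7a8 (42.4 ± 1.3) and Slc7a9 (44.0 ± 1.7), just above it. In DMSO, 17 of the 71 members stood at or above 10 RPKM. Summed over all members, the level was 857 to 864 RPKM in DMSO and 786 to 809 RPKM with NIBR-LTSi. The same sum over all tested genes was also lower, at 336000 to 351300 RPKM in DMSO and 313700 to 323100 RPKM with NIBR-LTSi. The lower sum is thus not particular to the members.

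Brush-border carriers fell in 4 of 7 tested cases (57.1%, against 19.2% of all genes), rose in 2 (28.6%, against 22.8%) and were not called in 1. The largest fall was in Slc6a19 (Entrez 74338; chromosome 13, 73679745 to 73700780), which encodes B0AT1, the main sodium-coupled carrier of neutral amino acids in the small intestine. It stood at 384, 398 and 390 CPM in DMSO replicates 1 to 3 and at 212, 214 and 210 CPM with NIBR-LTSi. Every treated library was thus far below every control, with a log2 fold change of -0.88 ± 0.03 (SE; edgeR adjusted p = 4.75e-09). Slc15a1 (Entrez 56643; chromosome 14, 121459621 to 121505254) encodes PEPT1, the proton-coupled carrier that takes up dipeptides and tripeptides. Its level was 123, 129 and 130 CPM in DMSO and 70.5, 73.0 and 73.3 CPM with NIBR-LTSi. The groups did not overlap, and the log2 fold change was -0.81 ± 0.04 (edgeR adjusted p = 4.70e-08).

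The heteromer of Slc3a1 (rBAT) and Slc7a9, which exchanges cystine and dibasic amino acids for neutral ones and is the carrier lost in cystinuria, fell in both subunits. Slc7a9 (chromosome 7, 35448727 to 35466034), the light chain, was at 154, 164 and 154 CPM in DMSO and at 114, 122 and 117 CPM with NIBR-LTSi, a log2 fold change of -0.42 ± 0.04 (edgeR adjusted p = 1.60e-05). Slc3a1 (chromosome 17, 85028347 to 85064241), the heavy chain, went from 280, 277 and 283 CPM to 244, 238 and 235 CPM, a smaller fall of 0.23 on the log2 scale (edgeR adjusted p = 2.63e-04). In both genes all treated libraries were below all controls. The ratio of Slc7a9 to Slc3a1 in RPKM was 0.466, 0.502 and 0.462 in DMSO and 0.395, 0.436 and 0.422 with NIBR-LTSi. Exons of Slc3a1 overlap those of Prepl on the opposite strand over 26.5% of their length, and the strand setting of the counting is not given in the sources used here. Prepl was at 43.5 ± 1.4 and 46.7 ± 1.5 CPM and was not called (adjusted p = 0.142).

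Not all apical carriers fell. Slc1a1 (chromosome 19, 28835135 to 28913960), the sodium-coupled carrier EAAT3 that takes up glutamate, aspartate and cysteine, rose from 22.8, 22.9 and 25.6 CPM to 36.2, 36.0 and 39.4 CPM (log2 fold change 0.65 ± 0.07, edgeR adjusted p = 1.11e-05). Of its exon bases, 31.9% overlap 4430402I18Rik on the opposite strand. Slc6a20a (chromosome 9, 123636907 to 123678832), which carries proline and other imino acids, was at 338, 326 and 335 CPM in DMSO and 327, 358 and 372 CPM with NIBR-LTSi. These ranges overlap, and the gene was not called (log2 fold change 0.08 ± 0.05, edgeR adjusted p = 0.182; 0.0266 without NIBR-LTSi replicate 1). Its neighbour Slc6a20b (chromosome 9, 123593823 to 123632538), a closely related gene, rose from 6.53, 5.78 and 6.38 CPM to 15.3, 14.6 and 15.3 CPM (log2 fold change 1.27 ± 0.09, edgeR adjusted p = 4.56e-07). Per length, Slc6a20b remained far below Slc6a20a, with a ratio of 0.00894 ± 0.00040 in DMSO and 0.0205 ± 0.0016 with NIBR-LTSi. Of the 50-base words of the annotated Slc6a20b transcripts, 7.24% also occur in Slc6a20a, and 21.1% of its exon bases overlap Sacm1l on the opposite strand. Its values are therefore less certain. Sacm1l itself was at 131 ± 1 and 128 ± 2 CPM (adjusted p = 0.487).

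Summed per length, the brush-border carriers stood at 369, 374 and 374 RPKM in DMSO and at 295, 303 and 304 RPKM with NIBR-LTSi. Within that sum Slc6a19 held 20.7%, 21.3% and 20.8% in DMSO and 14.4%, 14.1% and 13.8% with NIBR-LTSi, while Slc6a20a held 22.4%, 21.4% and 22.0% and then 27.2%, 28.9% and 30.0%. In this sum Slc6a19 lost share and Slc6a20a gained it in every treated library, although the level of Slc6a20a was not called. A share can grow because the rest of the sum falls: that of Slc3a1, which was called lower, averaged 33.1% in DMSO and 35.1% with NIBR-LTSi. Beside this, 15 enterocyte markers outside the transporter families summed to 46900 to 48300 CPM in DMSO and 41100 to 45300 CPM with NIBR-LTSi. Among these markers 5 were higher, 6 lower and 4 not called, against 22.8% of all genes higher and 19.2% lower. The part of enterocyte RNA in the falls was not tested.

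**Figure D2:**
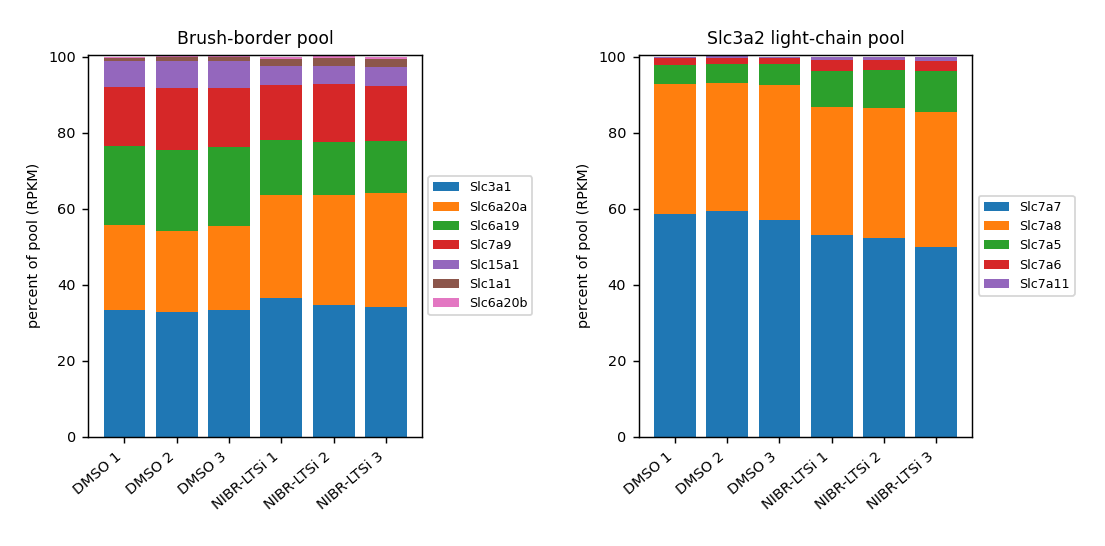
Share of each carrier, in percent of the summed RPKM, within the brush-border carriers (left) and Slc7 light chains that pair with Slc3a2 (right, Slc7a15 not counted), as stacked bars for each library. Slc6a19 falls from 21.0% to 14.1% of the left pool, and Slc7a5 rises from 5.21% to 10.2% of the right pool.

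At the basolateral side, 3 of 6 members fell, 1 rose and 2 were not called (66.7% called, against 42.0% of all genes). Slc43a2 (chromosome 11, 75529915 to 75577575), the facilitated carrier LAT4 that lets branched-chain amino acids, phenylalanine and methionine out of the cell, fell most clearly. It stood at 142, 139 and 151 CPM in DMSO and 88.9, 91.1 and 89.3 CPM with NIBR-LTSi, with no overlap (log2 fold change -0.68 ± 0.04, edgeR adjusted p = 2.34e-07). Its relative Slc43a1 (LAT3) was scarce, at 1.52, 1.61 and 1.04 CPM against 0.568, 0.777 and 0.731 CPM (log2 fold change -0.99 ± 0.29, edgeR adjusted p = 0.0157). That call was lost in DESeq2 (adjusted p = 0.0583) and on leaving out control replicate 1 (0.0729), control replicate 2 (0.0673) or treated replicate 1 (0.0550).

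Slc3a2 (chromosome 19, 8706882 to 8723369), the heavy chain 4F2hc (CD98) of the basolateral exchangers, was not called, at 248, 250 and 234 CPM in DMSO and 226, 230 and 236 CPM with the inhibitor (log2 fold change -0.08 ± 0.04, edgeR adjusted p = 0.126; 0.0465 without DMSO replicate 3). Its light chains went different ways. Slc7a7 (y+LAT1), which releases dibasic amino acids to the blood, fell slightly, from 237, 250 and 231 CPM to 217, 211 and 204 CPM (log2 fold change -0.18 ± 0.04, edgeR adjusted p = 0.00432). Slc7a8 (LAT2), an exchanger of neutral amino acids, was at 209, 215 and 219 CPM in DMSO and 208, 209 and 219 CPM with NIBR-LTSi. It was not called (log2 fold change -0.01 ± 0.04, edgeR adjusted p = 0.791), and its sign turned with library totals only and without DMSO replicate 3. Slc7a6 (y+LAT2), a broadly expressed light chain, rose from 9.61, 9.17 and 8.74 CPM to 16.2, 13.8 and 14.6 CPM (log2 fold change 0.69 ± 0.09, edgeR adjusted p = 6.62e-05).

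Of the summed RPKM of light chains that pair with Slc3a2 (here Slc7a5, Slc7a6, Slc7a7, Slc7a8 and Slc7a11), Slc7a7 made up 58.5%, 59.3% and 56.9% in DMSO and 53.0%, 52.2% and 50.0% with NIBR-LTSi. Slc7a5 made up 5.19%, 4.97% and 5.48% and then 9.49%, 10.1% and 10.8%. Slc7a7 thus kept the largest share while the share of Slc7a5 was higher in every treated library, and the share of Slc7a8 was 34.6 ± 1.0% in DMSO and 34.5 ± 1.0% with NIBR-LTSi. The sum of these light chains over Slc3a2 was 1.79 ± 0.05 in DMSO and 1.88 ± 0.04 with NIBR-LTSi, and these ranges met at 1.84. Slc7a15, a light chain at 3.37 ± 0.40 RPKM in DMSO and 1.13 ± 0.18 RPKM with NIBR-LTSi, was not counted in the sum or the shares.

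Carriers that supply cells with amino acids for growth rose in 7 of 9 tested cases and none fell (77.8% higher, against 22.8% of all genes). Slc7a11 (Entrez 26570; chromosome 3, 50364936 to 50499087) encodes xCT, which brings in cystine in exchange for glutamate and feeds glutathione synthesis. It went from 5.33, 5.50 and 4.49 CPM in DMSO to 15.3, 14.6 and 15.0 CPM with NIBR-LTSi, a 2.93-fold rise (log2 fold change 1.55 ± 0.10, edgeR adjusted p = 2.18e-07). Slc7a5 (Entrez 20539; chromosome 8, 121881146 to 121907686), the light chain LAT1 that imports leucine and other large neutral amino acids, went from 23.5, 23.4 and 24.8 CPM to 43.5, 45.9 and 49.6 CPM. This is a 1.94-fold rise with no overlap between the groups (log2 fold change 0.96 ± 0.06, edgeR adjusted p = 3.29e-07).

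Glutamine carriers of this group rose too, Slc38a2 only slightly and not in every run. Slc38a1 (SNAT1; chromosome 15, 96571418 to 96643438) was at 41.1, 42.2 and 43.5 CPM in DMSO and 76.8, 68.5 and 71.4 CPM with the inhibitor (log2 fold change 0.77 ± 0.05, edgeR adjusted p = 5.29e-07). Slc1a5 (ASCT2; chromosome 7, 16781334 to 16798274), an exchanger of glutamine and other neutral amino acids, went from 63.6, 64.8 and 63.3 CPM to 80.8, 87.1 and 91.8 CPM (log2 fold change 0.44 ± 0.05, edgeR adjusted p = 3.44e-05). Every treated library was above every control in both genes. Slc38a2 (SNAT2), which lies beside Slc38a1 on chromosome 15 (96687392 to 96699728), was the most abundant of this group per length. It stood at 203, 189 and 205 CPM in DMSO and 206, 222 and 230 CPM with NIBR-LTSi, so that the closest libraries differed by little. Its log2 fold change of 0.14 ± 0.05 (edgeR adjusted p = 0.0378) was no longer called in DESeq2 (0.0672), with DESeq2 size factors (0.0587), after the width adjustment (log2 fold change 0.03, adjusted p = 0.725) or on leaving out control replicate 1 (0.0747), control replicate 2 (0.126), treated replicate 2 (0.155) or treated replicate 3 (0.193).

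Slc7a1 (CAT1; chromosome 5, 148327410 to 148399904), the main carrier of arginine and lysine into most cells, rose from 79.1, 78.5 and 96.7 CPM to 128, 119 and 123 CPM (log2 fold change 0.54 ± 0.08, edgeR adjusted p = 5.32e-04). DMSO replicate 3 was the highest control and still lay below all treated libraries. Slc1a4 (ASCT1; chromosome 11, 20302180 to 20332713), which carries serine, alanine and cysteine, rose from 17.8, 20.3 and 19.9 CPM to 26.4, 27.2 and 27.8 CPM (log2 fold change 0.50 ± 0.07, edgeR adjusted p = 1.11e-04). The other cationic carriers Slc7a2 and Slc7a3 were at 1.24 CPM or less in every library and were not called (adjusted p = 0.419 and 0.732). Slc38a3, Slc38a4 and Slc38a5 had 10, 2 and 1 counts over all libraries and were not tested. The summed level of this group was 62.4 to 66.7 RPKM in DMSO and 84.8 to 91.4 RPKM with NIBR-LTSi. Proliferation markers moved with it: 9 of 10 rose and none fell, against 22.8% of all genes higher and 19.2% lower. The sum of these markers was 523 to 549 CPM in DMSO and 820 to 893 CPM with NIBR-LTSi. Their part in these rises was not tested.

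The ratio of Slc1a5 to Slc6a19 in RPKM was 0.199, 0.195 and 0.195 in DMSO and 0.457, 0.488 and 0.525 with NIBR-LTSi. This pair was chosen after its values were seen, and the ratio is given as a description.

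**Figure D3:**
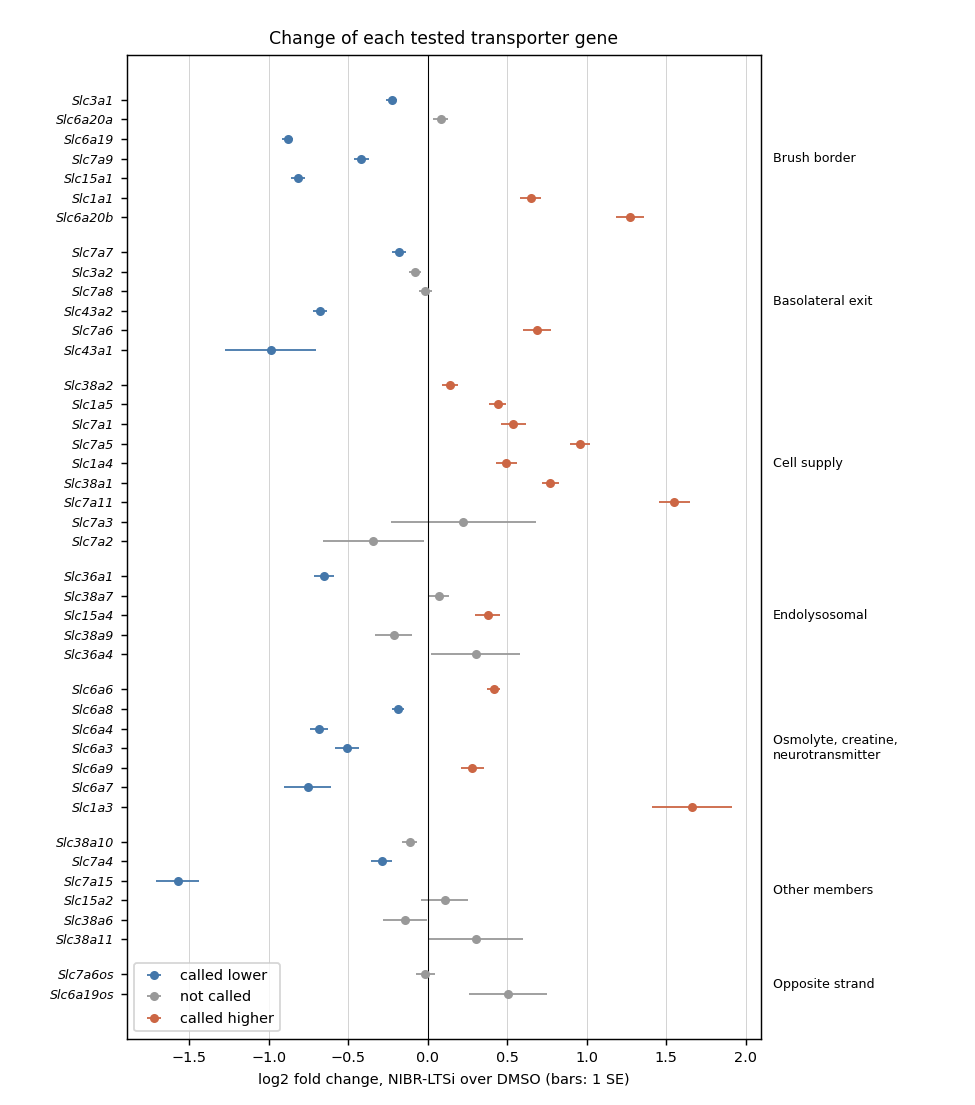
Log2 fold change of each tested transporter gene (points; bars are 1 SE), NIBR-LTSi over DMSO, by role and coloured by call. Cell-supply carriers lie on the right in all 7 called cases, while Slc6a19, Slc15a1, Slc43a2 and Slc36a1 lie between -0.88 and -0.65.

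Among carriers of lysosomes and endosomes, 1 of 5 tested members rose, 1 fell and 3 were not called (40% called, near the 42.0% of all genes). Slc36a1 (PAT1; chromosome 11, 55204322 to 55236330), a proton-coupled carrier of glycine, alanine and proline found in lysosomes and also in the brush border of some species, fell from 118, 113 and 116 CPM to 65.4, 77.8 and 77.0 CPM. NIBR-LTSi replicate 1 was the lowest, and the groups did not overlap (log2 fold change -0.65 ± 0.06, edgeR adjusted p = 7.44e-06). Slc15a4 (PHT1; chromosome 5, 127594545 to 127633292), which exports histidine and peptides from lysosomes, rose from 11.4, 10.8 and 10.7 CPM to 13.8, 14.3 and 14.6 CPM (log2 fold change 0.38 ± 0.08, edgeR adjusted p = 0.00191). Slc38a9, the lysosomal arginine sensor of the mTORC1 pathway, was at 13.5, 14.5 and 15.7 CPM in DMSO and 10.01, 13.8 and 13.6 CPM with NIBR-LTSi, with overlap, and was not called (adjusted p = 0.173; log2 fold change -0.38 and adjusted p = 0.0232 after the width adjustment). Slc38a7, a lysosomal glutamine and asparagine exporter, was at 27.7 ± 0.9 and 29.1 ± 1.8 CPM (adjusted p = 0.423), and Slc36a4 was near 1 CPM in both groups.

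All 7 tested carriers of osmolytes, creatine and neurotransmitters were called, 3 higher (42.9%, against 22.8% of all genes) and 4 lower (57.1%, against 19.2%). Slc6a6 (TauT; chromosome 6, 91684048 to 91759063), the sodium- and chloride-coupled taurine carrier, rose from 699, 658 and 718 CPM to 929, 896 and 942 CPM (log2 fold change 0.41 ± 0.04, edgeR adjusted p = 5.81e-06). Its mean per length was then the highest of the members in the treated organoids, within the spread of that of Slc3a1. Slc6a8, the creatine carrier, fell slightly, from 206, 207 and 209 CPM to 173, 183 and 189 CPM (log2 fold change -0.19 ± 0.04, edgeR adjusted p = 0.00292). Slc6a4 (SERT; chromosome 11, 76998597 to 77032343), which clears the serotonin released by enterochromaffin cells, fell from 80.1, 87.9 and 83.7 CPM to 55.2, 52.4 and 49.3 CPM (log2 fold change -0.68 ± 0.05, edgeR adjusted p = 1.51e-06). All treated libraries lay below all controls in Slc6a4, and the same held for 2 further neurotransmitter carriers. The dopamine carrier Slc6a3 fell from 23.2, 21.9 and 22.2 CPM to 14.7, 17.1 and 15.5 CPM (log2 fold change -0.51 ± 0.07, edgeR adjusted p = 1.59e-04). The proline carrier Slc6a7 fell from 8.81, 7.0 and 8.88 CPM to 3.92, 5.61 and 5.04 CPM (log2 fold change -0.76 ± 0.15, edgeR adjusted p = 0.00132). Beside these falls, 9 enteroendocrine markers summed to 494 to 520 CPM in DMSO and 393 to 409 CPM with NIBR-LTSi. Of these markers, 1 was higher (11.1%, against 22.8% of all genes), 4 were lower (44.4%, against 19.2%) and 4 were not called. Chgb, the most abundant, fell from 304 ± 9 to 214 ± 6 CPM, while Gcg rose from 35.6 ± 1.6 to 54.9 ± 1.6 CPM. Most of the fall in the sum was thus that of Chgb. Tph1, the marker of serotonin-making cells among them, was not called, at 8.54 ± 0.55 and 8.33 ± 0.16 CPM (edgeR adjusted p = 0.767). Sst, Neurod1 and Neurog3 were not called either. The choice of which markers to single out was made with the results in view. The part of these markers in the falls was not tested.

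Slc1a3 (chromosome 15, 8634124 to 8710807), the glutamate carrier EAAT1 best known from glia, rose 3.17-fold from a low level. Given its error, this was close in size to the rise of Slc7a11 and the fall of Slc7a15. Slc1a3 was at 0.761, 0.667 and 1.18 CPM in DMSO (19, 12 and 25 counts) and at 2.74, 3.03 and 2.56 CPM with NIBR-LTSi (53, 74 and 70 counts), a log2 fold change of 1.66 ± 0.25 (edgeR adjusted p = 2.21e-04). The glycine carrier Slc6a9 (GlyT1) rose from 17.8 ± 0.7 to 21.6 ± 1.4 CPM (edgeR adjusted p = 0.00728), and 27.8% of its exon bases overlap Ccdc24 on the opposite strand. By family, all 4 tested Slc1 genes rose (Slc1a1, Slc1a3, Slc1a4 and Slc1a5), against 22.8% of all genes. Both tested Slc43 genes fell, against 19.2% of all genes, but the call of Slc43a1 did not hold in every run. The larger families were mixed or mostly not called: Slc6 had 3 higher and 5 lower of 10 tested, Slc7 4 and 4 of 12, and Slc38 2 higher and 0 lower of 7.

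The strongest fall among the members was in Slc7a15 (Entrez 328059; chromosome 12, 8528481 to 8599066), a light chain known as an aromatic-preferring carrier. It stood at 11.1, 8.78 and 10.4 CPM in DMSO and 2.84, 3.89 and 3.40 CPM with the inhibitor (log2 fold change -1.57 ± 0.14, edgeR adjusted p = 3.13e-06). The highest treated library lay below the lowest control. Slc7a4, an Slc7 member without a settled substrate, fell from 24.1, 24.6 and 22.2 CPM to 19.2, 20.2 and 18.6 CPM, also without overlap (edgeR adjusted p = 0.00461). Slc38a10 was at 118 ± 3 and 110 ± 5 CPM and was not called (adjusted p = 0.0709), but was with DESeq2 size factors (0.0489), after the width adjustment (0.0130) and without NIBR-LTSi replicate 1 (0.0260). The peptide carrier Slc15a2 (PEPT2), which has a higher affinity than Slc15a1, was scarce in these organoids, at 6.23 ± 0.85 and 6.70 ± 1.21 CPM (adjusted p = 0.603). Slc38a6 and Slc38a11 were not called (adjusted p = 0.446 for each). The opposite-strand genes Slc7a6os and Slc6a19os were not called (adjusted p = 0.875 and 0.121), and Slc36a1os had 5 counts in all.

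Genes that work with the carriers were counted from lists outside the families. Of 16 tested peptidases of protein digestion, 7 were lower (43.8%, against 19.2% of all genes) and 6 higher (37.5%, against 22.8%; median log2 difference -0.02). The aminopeptidases Enpep (605 ± 16 to 1166 ± 31 CPM, edgeR adjusted p = 3.79e-09) and Anpep (1769 ± 2 to 2561 ± 23 CPM, edgeR adjusted p = 7.76e-08) rose beside the fall of Slc15a1, Anpep being named after its value was seen. Dpep1, a dipeptidase anchored in the membrane, fell from 347 ± 9 to 170 ± 5 CPM (edgeR adjusted p = 3.99e-09), and Ggt1, which starts the breakdown of extracellular glutathione, from 342 ± 4 to 192 ± 3 CPM (edgeR adjusted p = 7.53e-09). Among 13 tested partners and regulators of carriers, 4 rose and 4 fell (30.8% in each direction, against 22.8% of all genes higher and 19.2% lower), or 2 fell without DMSO replicate 1. Cltrn (collectrin), a partner of amino acid carriers in the kidney, was at 0.15 CPM or less on average in each group and was not tested. Pdzk1, a scaffold of apical transporters, rose from 16.2 ± 0.5 to 46.4 ± 1.0 CPM (edgeR adjusted p = 3.79e-09).

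Amino acid carriers outside the 8 families fell more often than they rose, with 8 lower and 2 higher of 16 tested (50.0% lower, against 19.2% of all genes), but with small changes (median log2 fold change -0.15). Only 1 of them passed 1.5-fold, Slc17a8, which rose from 0.211 ± 0.126 to 0.782 ± 0.091 CPM (edgeR adjusted p = 0.00426) and was not among the genes tested with a filter of 1 CPM. The mitochondrial serine carrier Sfxn1 fell from 311 ± 5 to 233 ± 6 CPM (edgeR adjusted p = 3.13e-06), and Slc16a10 (TAT1), the basolateral carrier of aromatic amino acids, from 187 ± 7 to 166 ± 5 CPM (edgeR adjusted p = 0.00589). The latter was named after its value was seen.

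In the list of genes driven by ATF4 or the amino acid response, 18 of 29 genes were higher (62.1%, against 22.8% of all genes) and 5 lower (17.2%, near the 19.2% of all genes), the median log2 change being 0.42 (0.02 over all genes). Leaving out control replicate 1 gave 2 lower, leaving out treated replicate 2 or treated replicate 3 gave 3, and library totals only gave 3. Among those that rose were genes of serine and asparagine synthesis and of transfer RNA charging: Psat1 (67.3 ± 3.6 to 146 ± 4 CPM, edgeR adjusted p = 9.60e-09) and Phgdh (20.8 ± 1.1 to 37.6 ± 1.4 CPM, edgeR adjusted p = 6.81e-07) in serine synthesis, Asns (74.7 ± 5.8 to 139 ± 4 CPM, edgeR adjusted p = 1.59e-07), and the transfer RNA synthetase gene Nars (edgeR adjusted p = 1.33e-06). Atf4 itself was at 397 ± 18 and 376 ± 3 CPM (log2 fold change -0.08 ± 0.04, edgeR adjusted p = 0.118; 0.0235 without DMSO replicate 3), and the other members went different ways. The stress-response genes Atf3, Ddit4 and Trib3 fell (adjusted p = 2.74e-04, 3.12e-05 and 0.00940), Chac1, Nupr1 and Atf5 rose (1.13e-04, 3.62e-04 and 0.00430), and Ddit3 and Sesn2 were not called. The choice of Nars and of these 8 stress-response genes followed a look at their values. Of 38 tested genes of amino acid sensing and mTORC1, 8 rose and 6 fell (36.8% called, against 42.0% of all genes), and none changed by 1.5-fold. The 8 that rose were 12 with library totals only and 10 without DMSO replicate 3, but 3 in DESeq2, 4 after the width adjustment, 5 on leaving out control replicate 1, control replicate 2 or treated replicate 3, and 4 on leaving out treated replicate 2. Lars, the leucyl transfer RNA synthetase that also acts as a leucine sensor, rose from 62.3 ± 0.5 to 84.1 ± 5.3 CPM (edgeR adjusted p = 3.81e-05), and Rragd, a RAG GTPase that binds mTORC1 to the lysosome, fell from 247 ± 8 to 199 ± 4 CPM (edgeR adjusted p = 6.16e-05).

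**Figure D4:**
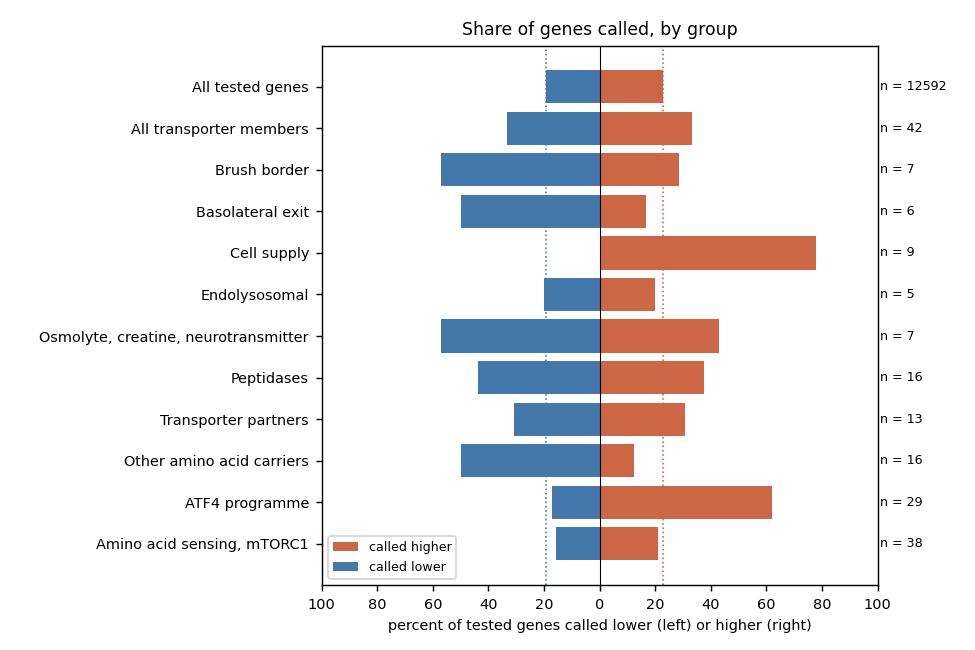
Share of tested genes called higher (right) and lower (left), in percent, for all genes, for the transporter members and their roles and for the gene lists beside them; dotted lines mark the shares over all genes (22.8% and 19.2%) and n is the number tested. The cell-supply carriers reach 77.8% higher with none lower, and the ATF4 list 62.1% higher.

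Tested against a fold change of at least 1.2 instead of any change (edgeR glmTreat), 20 of the 28 member calls remained, 11 higher and 9 lower, and 15.4% of all genes were called. The 8 that did not pass were Slc3a1, Slc7a7, Slc43a1, Slc6a8, Slc7a4, Slc38a2, Slc15a4 and Slc6a9. Apart from this stricter question, 26 of the 28 calls held under every alternative run, the exceptions being Slc43a1 and Slc38a2.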

How the data were processed

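The authors deposited 1 table of raw read counts per gene with a gene width for 6 libraries. Per the labels' protocols, organoids were dissociated before RNA extraction, and 200 ng of RNA entered a stranded mRNA kit. Per the submitters' processing notes, the build was mm10 and edgeR was used; aligner, counter and strand setting: not given in the sources used here. Here, edgeR 4.0.16 (R 4.3.3) was run with TMM factors, filterByExpr (12592 genes kept) and the robust quasi-likelihood F-test (two-sided) on group alone, 4 residual degrees of freedom and Benjamini-Hochberg adjustment over all tested genes; calls are at 0.05. Unless another is named, adjusted p-values are from this test. Each SE is |log2 change| over the square root of the F statistic. The procedure was also run on simulated counts in which far fewer genes changed than were called here. That run therefore cannot check the scaling or the error rate under the conditions of these data.

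Within groups, pairs of libraries differed by more than sampling noise (chi-square per degree of freedom 4.56 to 11.8). Positions come from RefSeq (GRCm38.p6), exon overlaps and shared words from GENCODE on the same assembly. Alternatives were limma-voom (limma 3.58.1), DESeq2 1.42.0, other scalings and filters, a replicate block, a gene-width adjustment (loess of each library's log2 CPM deviation on log2 width), a 1.2-fold threshold and leaving out each library. Full values were given to the 12 strongest called members in each direction and a fixed set of 21; up to 4 genes of smallest p per list and Atf4 and Cltrn were named beside them, and 1 further gene of the rule is not reported here. Members, roles and lists were chosen with earlier results of these data known.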

Additional observations from a re-analysis of the deposited data

How the results depend on the processing

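Deviations from the group means correlated at 0.0219, -0.161 and 0.506 in the same-numbered pairs of libraries 1, 2 and 3. In differently numbered pairs the correlations ran from -0.451 to 0.461, so they do not settle whether the libraries were paired. The numbers were not used as pairs. With the replicate block 14 members were higher and 14 lower, and the block changed no member call. Member counts were 13 to 14 higher and 13 to 16 lower over the other tools, scalings and filters, and 13 to 15 in each direction with 1 library left out. Against a 1.2-fold change, the counts were 1175 higher and 764 lower over all genes, 9 members lower, 4 peptidases lower, 2 partners higher and 1 lower, 1 other amino acid carrier higher and 1 lower, 2 ATF4 genes lower, and 1 sensing gene higher and 1 lower; fewer calls follow from the stricter question. The ATF4 list had 3 lower with library totals only, the other carriers 1 higher with the filter of 1 CPM (fewer genes were tested), and the sensing list 3 higher in DESeq2 and 4 after the width adjustment, where the cause was not tested. With 1 library left out, 2 to 4 partners fell, 2 to 6 ATF4 genes fell and 4 to 10 sensing genes rose. Signs turned in 4 members that were not called: with library totals only, Slc7a8 was at 0.0302 and Slc7a6os at 0.031, and with 1 library left out Slc7a8 ran from -0.0477 to 0.00032, Slc7a6os from -0.0513 to 0.0131, Slc7a3 from -0.21 to 0.56 and Slc15a2 from -0.000268 to 0.23. The 29 members that were not tested had at most 48 counts over all libraries, and the 5 tested members with the fewest (Slc38a11, Slc7a3, Slc7a2, Slc36a4 and Slc43a1) had 95 to 139.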
